A study of Rattus norvegicus with 16 samples.

Results

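Levels of 10 enzymes of glycolysis were compared between denervated and naïve hairy skin of the rat. They are the muscle isoforms Pfkm, Eno3 and Pgam2, and the widely expressed or shared enzymes Hk2, Gpi, Aldoa, Tpi1, Pgk1, Eno1 and Ldha. The genes were chosen by name as steps of the pathway, and a gene entered through every probeset annotated to it alone. All 10 of 10 were measured, among 14217 genes on the array.

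Dorsal skin was taken from adult female Sprague-Dawley rats at 7 days (n = 5) and at 14 days (n = 5) after its dorsal and lateral cutaneous nerves had been cut and ligated, and from naïve rats without surgery (n = 6). The skin came from the T9/10 dermatome, and the naïve samples came from the same place. Because the cutaneous trunci muscle inserts into the dermis there, every sample held skin and muscle together, and the submitters state that this muscle kept its own nerve supply. RNA of each sample was hybridised to 1 Affymetrix array of the rat genome, and all levels below are the authors' log2 signals, where naïve and denervated arrays share one scale.

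Glycolysis turns glucose into pyruvate, with a small yield of ATP that needs no oxygen, and lactate dehydrogenase turns pyruvate into lactate. Fast skeletal muscle fibres depend on it during bursts of contraction and express isoforms of phosphofructokinase, phosphoglycerate mutase and enolase that most other cells use little. Keratinocytes of the epidermis and the hair follicle also make much of their ATP this way, mostly with the widely expressed isoforms.

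Some facts of the whole set bear on what follows. The naïve arrays were the least alike, with a lowest correlation between arrays of 0.931, against 0.978 at 7 days and 0.993 at 14 days. Naïve replicates 1 and 2 stood apart from naïve replicates 3 to 6 in the glycolysis enzymes, in sarcomere genes and in hair follicle genes. The mean level of 29 measured sarcomere genes ran from 10.08 to 11.35 at 7 days, from 10.08 to 10.43 at 14 days and from 10.06 to 11.95 in naïve skin, and none of these genes was under 6.32 on any array. The mean level of 11 measured hair follicle genes ran from 9.49 to 11.55 at 7 days, from 11.63 to 11.76 at 14 days and from 6.66 to 11.89 in naïve skin. The labels do not say whether naïve rats were handled in batches, and no arrays held identical values. In tissue samples of this kind, fewer cells of a type and less RNA per cell cannot be told apart.

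At 14 days, 7 of the 10 enzymes fell relative to naïve skin, 1 rose and 2 did not pass (limma, Benjamini-Hochberg adjusted p under 0.05 over all genes). Pfkm fell by 1.50 on the log2 scale, Eno3 by 1.09, Pgk1 by 1.04, Tpi1 by 0.95, Gpi by 0.81, Ldha by 0.76 and Aldoa by 0.56. Eno1 was the enzyme that rose, with a log2 fold change of 0.61. Pgam2 had a log2 fold change of -1.25 and Hk2 one of 0.04, and neither passed. Over all genes, 14.6% were lower and 8.95% higher at 14 days, 23.5% in either direction. The 7 calls depended on single arrays. Without 14-day replicate 2, or without naïve replicate 4, 5 or 6, only Pfkm was still called lower. Without any other 14-day array, or without naïve replicate 3, from 2 to 4 enzymes were. Eno1 was not called after any of 9 arrays was left out in turn (each 14-day array, and naïve replicates 3 to 6). Over all genes, leaving out 1 array at a time gave from 1209 to 2690 lower and from 446 to 2150 higher.

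At 7 days none of the 10 enzymes passed, while 2.66% of all genes were lower and 7.85% higher, 10.5% in either direction. The enzymes lay between -0.92 for Pgam2 and 0.45 for Eno1. Before adjustment, 2 of the 10 had p under 0.05 (Gpi and Eno1), against 4190 of 14217 genes. This count too depended on 1 array. Without naïve replicate 2, Pfkm, Eno3, Pgam2, Gpi, Tpi1, Pgk1 and Ldha were lower and Eno1 higher. The same fit called 1192 of all genes lower and 1475 higher. Without naïve replicate 1 Eno1 was higher, beside 794 of all genes lower and 1508 higher.

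**Figure D1:**
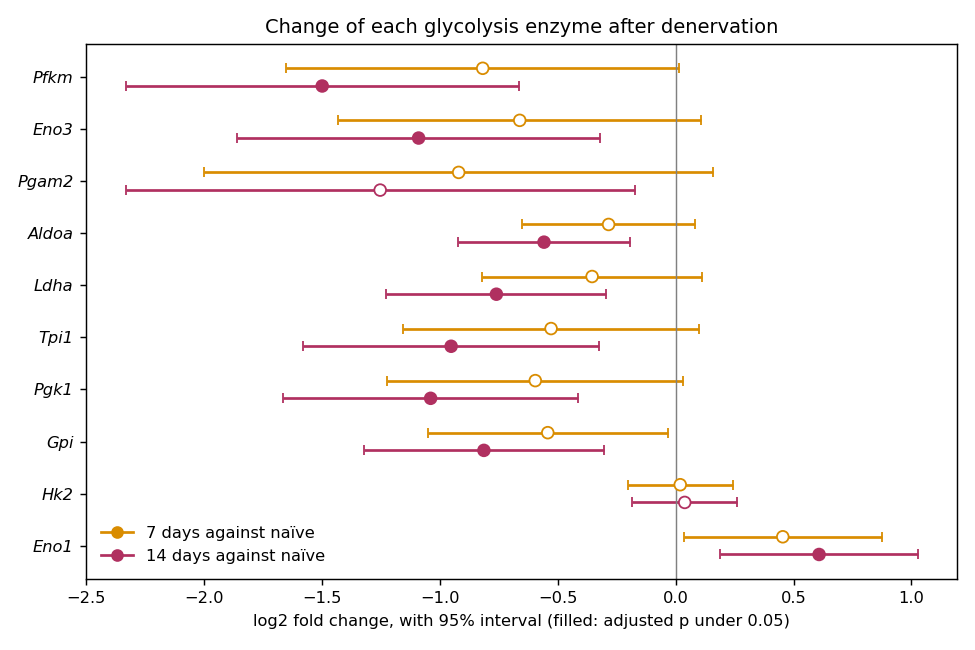
Log2 fold change of each of the 10 enzymes at 7 days and at 14 days against naïve skin (horizontal axis, log2 units), with 95% intervals from the limma model, and filled points where the adjusted p was under 0.05. At 14 days the filled points are 7 enzymes below 0 and Eno1 above 0, and at 7 days no point is filled.

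Pfkm encodes the muscle subunit of phosphofructokinase, which commits glucose to the pathway. At 7 days its levels were 9.50, 11.06, 9.76, 10.51 and 10.69, and at 14 days 9.44, 9.42, 9.87, 9.51 and 9.88. In naïve skin the lowest was 9.64, the median 11.54 and the highest 11.97. The 14-day arrays lay close together, naïve replicate 2 was the only naïve array among them, and the 7-day arrays spread from the 14-day level into the naïve one. The 14-day level was 2.83-fold lower than the naïve level (log2 fold change -1.50, SE 0.391, adjusted p = 0.0179, 95% interval -2.33 to -0.67). At 7 days the log2 fold change was -0.82 (adjusted p = 0.176). Of its 3 probesets, 2 gave log2 fold changes of -1.45 and -1.50 at 14 days, and a dim one with a mean level of 5.22 gave 0.12 (adjusted p = 0.402).

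Eno3 encodes beta-enolase, the muscle isoform of the enzyme that makes phosphoenolpyruvate. It stood at 10.90, 12.56, 11.21, 12.01 and 12.12 at 7 days and at 11.12, 11.30, 11.45, 11.27 and 11.52 at 14 days. Naïve skin had a lowest level of 10.98, a median of 12.80 and a highest level of 13.04. The lowest naïve array, replicate 2, lay below every 14-day array, and the groups overlapped. Eno3 was 2.13-fold lower at 14 days (log2 fold change -1.09, SE 0.362, adjusted p = 0.0415) and had a log2 fold change of -0.66 at 7 days (adjusted p = 0.233).

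Pgam2 encodes the muscle form of phosphoglycerate mutase, which moves the phosphate group ahead of enolase. Its levels were 10.55, 12.52, 10.76, 11.52 and 11.76 at 7 days and 10.70, 11.05, 11.23, 11.11 and 11.36 at 14 days, against 10.05 (lowest), 12.83 (median) and 13.34 (highest) in naïve skin. It had the widest naïve spread of the 10 enzymes (SD 1.25, n = 6). The mean difference at 14 days was the second in size, at -1.25 (SE 0.507, 95% interval -2.33 to -0.18), but did not pass (adjusted p = 0.0814). At 7 days it was -0.92 (adjusted p = 0.237). Without naïve replicate 2, Pgam2 passed at both times, with log2 fold changes of -1.38 at 7 days and -1.71 at 14 days.

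Promoter sequences are shown for the muscle isoforms Pgam2 and Eno3, and for Ldha and Eno1, which moved in opposite directions. Over the 16 arrays Pgam2, Eno3 and Ldha followed nearly the same pattern (Pearson's r from 0.952 to 0.981), and only Eno1 ran against it. The sequences are the 250 bases before the annotated start in RefSeq (GRCr8), 5′ to 3′ on the gene's strand. Capitals mark every match, on either strand, to CANNTG (the E-box read by muscle regulatory factors among others), ACGTG (the core read by hypoxia-inducible factors), GGGCGG (the GC box) and TATAAA (the TATA box). The palindrome CACGTG holds both an E-box and the ACGTG core.
Pgam2, chr14:84897875-84898124, minus strand: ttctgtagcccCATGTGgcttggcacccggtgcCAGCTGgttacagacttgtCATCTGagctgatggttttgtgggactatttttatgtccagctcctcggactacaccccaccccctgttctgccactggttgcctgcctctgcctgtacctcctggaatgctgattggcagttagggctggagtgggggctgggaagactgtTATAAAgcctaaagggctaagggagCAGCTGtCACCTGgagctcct
Eno3, chr10:55868936-55869185, plus strand: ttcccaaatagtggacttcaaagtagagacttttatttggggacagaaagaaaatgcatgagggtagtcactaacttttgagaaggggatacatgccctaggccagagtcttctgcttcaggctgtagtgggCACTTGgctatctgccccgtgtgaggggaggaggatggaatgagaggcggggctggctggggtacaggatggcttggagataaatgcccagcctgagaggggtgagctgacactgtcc
Ldha, chr1:106507842-106508091, plus strand: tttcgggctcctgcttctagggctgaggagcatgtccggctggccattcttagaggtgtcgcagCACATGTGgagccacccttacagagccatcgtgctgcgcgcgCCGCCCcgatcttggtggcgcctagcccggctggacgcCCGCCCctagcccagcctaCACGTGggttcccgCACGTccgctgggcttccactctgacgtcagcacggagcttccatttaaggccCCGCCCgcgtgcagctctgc
Eno1, first start, chr5:166002617-166002866, plus strand: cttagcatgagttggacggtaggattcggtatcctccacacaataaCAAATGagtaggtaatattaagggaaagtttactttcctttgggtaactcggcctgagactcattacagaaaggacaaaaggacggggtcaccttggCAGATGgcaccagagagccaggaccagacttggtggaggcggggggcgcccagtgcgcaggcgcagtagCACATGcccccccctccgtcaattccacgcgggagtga
Eno1, second start, chr5:166003111-166003360, plus strand: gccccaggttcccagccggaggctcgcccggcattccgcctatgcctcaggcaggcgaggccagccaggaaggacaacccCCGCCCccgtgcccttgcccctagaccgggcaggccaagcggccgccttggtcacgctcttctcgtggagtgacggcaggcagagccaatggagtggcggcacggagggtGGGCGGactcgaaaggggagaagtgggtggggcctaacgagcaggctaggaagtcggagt

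Pgam2 held 5 E-boxes and the only TATA box among the members' windows, 46 bases before the start, with 55.6% G and C. Eno3 held 1 E-box and neither ACGTG nor GC box (52.4% G and C), and its muscle-isoform partner Pfkm held 1 ACGTG. Ldha held 3 ACGTG matches, 2 of them the strands of 1 CACGTG, and 3 GC boxes (66.4% G and C). It also held 3 E-boxes, 1 of them that CACGTG, as many as the first start of Eno1. The first start of Eno1 held 3 E-boxes (54.4% G and C) and the second 2 GC boxes (69.2% G and C). Of 12 windows of 9 members with an entry, 3 held ACGTG, 7 CANNTG, 5 GGGCGG and 1 TATAAA. Among all 33469 windows of that length, 16.6% held ACGTG, 65.5% CANNTG, 30.5% GGGCGG and 12.9% TATAAA. The MEF2 consensus, searched too, was in 1 member window, that of the middle start of Aldoa, and in 2.96% of all windows. These are matches of letters, and binding was not measured.

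**Figure D2:**
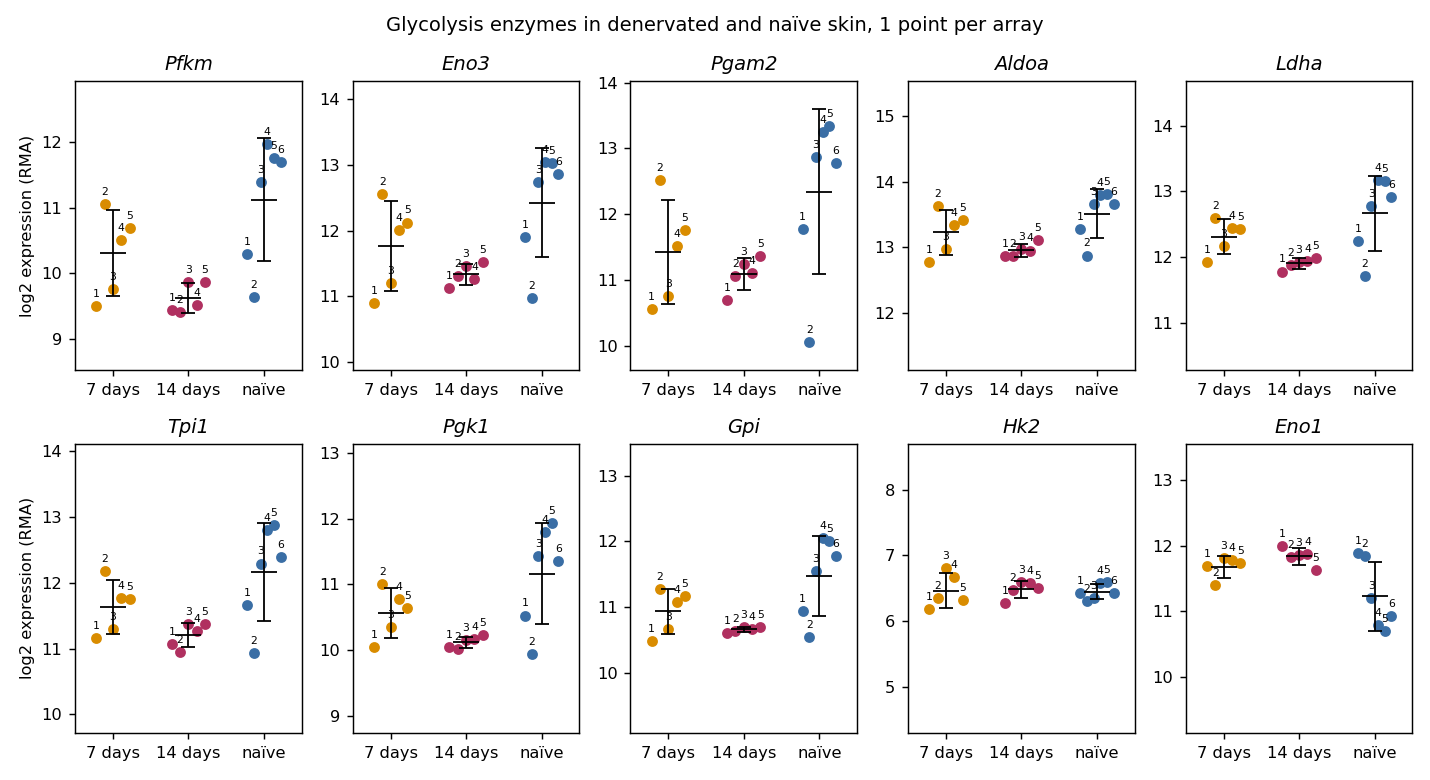
Log2 signal of each enzyme (vertical axis, panels of equal span) on every array at 7 days, 14 days and in naïve skin. Numbers are replicate numbers and bars are means with SD. In 8 panels naïve replicates 3 to 6 lie above all 14-day arrays, in the Eno1 panel they lie below them, and Hk2 shows no separation.

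The enzymes of the steps between hexose phosphate and pyruvate were next. Gpi encodes glucose-6-phosphate isomerase, which makes fructose 6-phosphate. Its levels were 10.49, 11.27, 10.67, 11.08 and 11.18 at 7 days and 10.61, 10.64, 10.70, 10.67 and 10.70 at 14 days, against a lowest of 10.55, a median of 11.66 and a highest of 12.05 in naïve skin. The 14-day arrays lay closer together than the naïve ones (SD 0.038 and 0.611), and only naïve replicate 2 lay below them. Gpi was 1.76-fold lower at 14 days (log2 fold change -0.81, SE 0.239, adjusted p = 0.0276) and had a log2 fold change of -0.54 at 7 days (adjusted p = 0.146).

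Aldoa encodes aldolase A, which splits fructose 1,6-bisphosphate and is the main aldolase of muscle, although most tissues express it. It was the brightest of the members, at 12.78, 13.63, 12.98, 13.35 and 13.41 at 7 days and 12.86, 12.87, 12.97, 12.95 and 13.11 at 14 days. Naïve skin had 12.88 (lowest), 13.66 (median) and 13.81 (highest). Aldoa was 1.47-fold lower at 14 days (log2 fold change -0.56, SE 0.172, adjusted p = 0.0319), the smallest decrease of the 7.

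Tpi1 encodes triosephosphate isomerase, which converts the second product of aldolase so that it stays in the pathway. It was at 11.16, 12.19, 11.29, 11.77 and 11.75 at 7 days and at 11.07, 10.95, 11.37, 11.28 and 11.37 at 14 days, against 10.93 (lowest), 12.34 (median) and 12.88 (highest) in naïve skin. It was 1.94-fold lower at 14 days (log2 fold change -0.95, SE 0.296, adjusted p = 0.0328) and had a log2 fold change of -0.53 at 7 days. As with the muscle isoforms, the lowest naïve array was replicate 2.

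Pgk1 encodes phosphoglycerate kinase, the first step that returns ATP. Its levels were 10.05, 11.01, 10.36, 10.78 and 10.64 at 7 days and 10.05, 10.02, 10.15, 10.16 and 10.23 at 14 days, against 9.95 (lowest), 11.39 (median) and 11.93 (highest) in naïve skin. Pgk1 was 2.06-fold lower at 14 days (log2 fold change -1.04, SE 0.295, adjusted p = 0.0241), beside -1.09 for the muscle isoform Eno3. Of its 3 probesets, 2 gave log2 fold changes of -1.04 and -0.99 at 14 days, and a dim one with a mean level of 3.70 gave -0.09.

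Ldha encodes the lactate dehydrogenase subunit that predominates in fast muscle. It was at 11.92, 12.59, 12.17, 12.44 and 12.43 at 7 days and at 11.78, 11.88, 11.92, 11.95 and 11.99 at 14 days, against 11.72 (lowest), 12.85 (median) and 13.18 (highest) in naïve skin. It was 1.70-fold lower at 14 days (log2 fold change -0.76, SE 0.219, adjusted p = 0.0259) and had a log2 fold change of -0.36 at 7 days (adjusted p = 0.287).

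Eno1 encodes alpha-enolase, the isoform of most tissues. It ran the other way, at 11.68, 11.40, 11.81, 11.79 and 11.74 at 7 days and 12, 11.82, 11.86, 11.87 and 11.62 at 14 days, against 10.70 (lowest), 11.07 (median) and 11.89 (highest) in naïve skin. The highest naïve arrays were replicates 1 and 2, at 11.89 and 11.85, within the 14-day range. Eno1 was 1.52-fold higher at 14 days (log2 fold change 0.61, SE 0.197, adjusted p = 0.0380), and its log2 fold change at 7 days was 0.45 (SE 0.197, adjusted p = 0.141).

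Hk2 encodes hexokinase 2, the hexokinase that predominates in insulin-responsive muscle and that phosphorylates glucose on entry. Its levels were low on this scale, at 6.19, 6.35, 6.81, 6.66 and 6.32 at 7 days and 6.27, 6.47, 6.59, 6.58 and 6.51 at 14 days, against 6.31 (lowest), 6.43 (median) and 6.59 (highest) in naïve skin. The log2 fold change was 0.02 at 7 days (95% interval -0.20 to 0.24) and 0.04 at 14 days (95% interval -0.18 to 0.26), so a change as large as that of Eno1 at 14 days lay outside both intervals. This holds for the measured signal, and whether so low a signal understates a change was not tested.

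No enzyme's groups were fully apart in any of the comparisons. Over all genes, the arrays of the groups did not overlap for 3.31% of genes higher and 1.35% lower at 7 days, for 3.69% higher and 6.66% lower at 14 days, and, between 14 and 7 days, for 9.07% higher and 11.6% lower. Against naïve skin, the overlap followed the naïve replicates, other than in Hk2. Between 14 and 7 days no naïve arrays are compared, and the groups overlapped there too. Naïve replicates 3 to 6 lay above every 14-day array in 8 of the 10 enzymes and below every one in Eno1. The range of naïve replicates 1 and 2 overlapped the 14-day range in all 10, with both arrays inside it in 2 (Eno1 and Hk2). How many of all genes divide in this way was not counted, so the enzymes' counts have no share to stand beside. Naïve replicates 3 to 6 also lay above every 14-day array in all measured sarcomere genes except Tpm1, where they lay below. The division was thus not particular to the enzymes. With naïve replicates 1 and 2 both left out, 8 enzymes were lower and Eno1 higher at 7 days as well as at 14 days. These arrays were the lowest naïve ones for those 8 and the highest for Eno1, so leaving them out could only enlarge the differences. With naïve replicates 4 and 5 both left out, none passed at either time. The first of these fits also raised the calls over all genes, at 7 days to 2334 lower and 2706 higher. At 14 days it raised them to 3101 and 3006. The second fit reduced them to 46 and 345 at 7 days and to 708 and 251 at 14 days.

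Between the times, 14-day skin was set against 7-day skin. None of the 10 enzymes passed, against 10.1% of all genes lower, 8.86% higher and 18.9% in either direction, and none had an unadjusted p under 0.05. The log2 fold changes ran from -0.68 for Pfkm (SE 0.409, 95% interval -1.55 to 0.19) to 0.15 for Eno1 (95% interval -0.28 to 0.59). The comparisons of each time with naïve skin share their naïve arrays. In them, the median log2 fold change of the muscle isoforms was -0.82 at 7 days and -1.25 at 14 days, that of the other 7 enzymes -0.36 and -0.76, and that of all genes -0.02 and 0.02.

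Whether the muscle isoforms and their partners changed unequally was tested for 3 pairs in 3 comparisons. The measure was the difference of both log2 levels within each array. The zero of such a difference carries no meaning, as probesets differ in brightness, and only its change between groups does. Eno3 minus Eno1 was -0.78, 1.17, -0.60, 0.23 and 0.39 at 7 days and -0.88, -0.52, -0.41, -0.61 and -0.11 at 14 days, against -0.87 (lowest) and 2.32 (highest) in naïve skin. The mean difference was lower by 1.70 log2 units at 14 days than in naïve skin (exact permutation test, two-sided, p = 0.0325, adjusted over the 9 tests 0.146), which does not pass. Part of this change is the rise of Eno1, by 0.61.

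Pfkm minus Pfkl, where Pfkl is the liver form of phosphofructokinase, changed by -1.82 at 14 days (exact permutation p = 0.0152, adjusted 0.136) and by -1.19 at 7 days (adjusted 0.161). Pgam2 minus Pgam1, where Pgam1 is the brain or widely expressed form, changed by -1.47 at 14 days (exact permutation p = 0.0671, adjusted 0.161) and by -1.21 at 7 days (adjusted 0.214). Of the partners themselves, Pfkl had log2 fold changes of 0.37 and 0.32 at 7 and 14 days and Pgam1 0.29 and 0.22, and none of these passed. Pfkp, another phosphofructokinase gene, was brighter than Pfkl (means 9.15 and 6.84) and was not paired. Its log2 fold changes were 0.06 and 0.07, and neither passed. The smallest p that 5 arrays against 6 can give is 0.00217. Naïve replicate 2 was the lowest naïve array in each pair. Without it, all 3 pairs at 14 days had an adjusted p of 0.0238, but leaving out the lowest naïve array could only enlarge the changes. The changes were then -2.11 for the enolases, -1.99 for the mutases and -2.11 for the phosphofructokinases. The smallest unadjusted p that 5 arrays against 5 can give is 0.00794. Over all single omissions at 14 days, the adjusted p reached 0.271 for the enolases, 0.271 for the mutases and 0.214 for the phosphofructokinases. From 7 to 14 days no pair passed, with changes of -0.58, -0.26 and -0.62 in the same order.

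**Figure D3:**
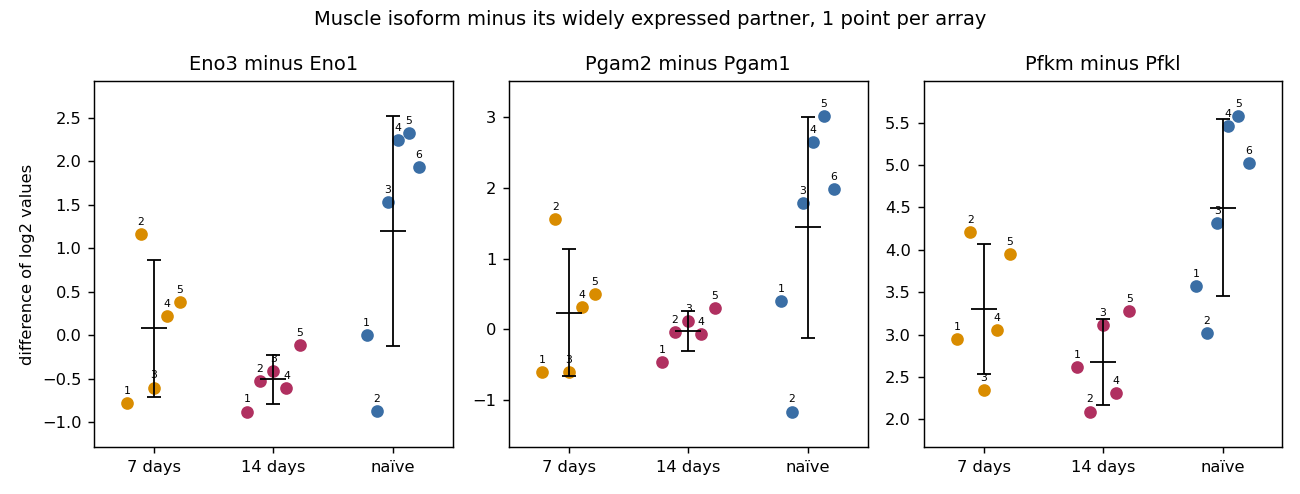
Difference of log2 levels between the muscle isoform and its partner (vertical axis) on each array, for Eno3 minus Eno1, Pgam2 minus Pgam1 and Pfkm minus Pfkl, at 7 days, 14 days and in naïve skin, with bars for the mean and SD. Naïve replicates 3 to 6 stand highest in each panel and naïve replicates 1 and 2 lie among or near the denervated arrays.

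The glycolysis enzymes varied together across arrays. Over the 16 arrays, which share the groups, the scaling and the division among naïve rats, Pfkm, Eno3, Pgam2, Gpi, Aldoa, Tpi1, Pgk1 and Ldha correlated with one another at 0.95 to 0.992. Eno1 correlated with these 8 at -0.927 to -0.854, and Hk2 with them at 0.098 to 0.208. The genes outside the lists of glycolysis enzymes, regulators and transporters with the pattern most like each member, by Pearson's r over the same 16 arrays, were Myom2 for Pfkm (0.993) and for Eno3 (0.995), Casq1 for Pgam2 (0.996), Rragd for Gpi (0.994), Myoz1, which is on the sarcomere list, for Aldoa (0.995), Stac3 for Tpi1 (0.991), Macrod1 for Pgk1 (0.993) and Rtn2 for Ldha (0.995). For Eno1 the nearest was Mapre1 (0.982), and for Hk2 Nadsyn1 (0.78).

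Genes of the sarcomere mostly moved with the enzymes. Of 29 measured sarcomere genes, 17 were lower at 14 days and none at 7 days, beside 14.6% and 2.66% of all genes. Their median log2 fold change was -1.04 at 14 days and -0.46 at 7 days. Tpm1 ran the other way, at 0.91 at 14 days and 0.64 at 7 days, and did not pass. Hair follicle genes moved too: 9 of 11 measured were higher at 14 days, and at 7 days 1 was lower and none higher. Over all genes, 8.95% were higher at 14 days and 7.85% at 7 days. The same shares stand beside the macrophage, fibroblast and endothelial counts below. When the mean sarcomere score of each array was added to the model, none of the 10 enzymes passed at 14 days, Pfkm had a log2 fold change of -0.23, Pgk1 -0.11, Eno3 0.08 and Pgam2 0.36, and over all genes 229 were lower and 105 higher. With the hair follicle score none passed either, Pfkm stood at -0.32, and over all genes 250 were lower and 88 higher. Of 16 macrophage genes, 13 were higher at 7 days and 2 at 14 days. Of 10 fibroblast and matrix genes, 6 were higher at 7 days and 3 at 14 days, and of 9 measured endothelial genes, 8 at 7 days and none at 14 days. The mean level of the fibroblast and matrix genes ran from 12.01 to 12.80 at 7 days, from 11.54 to 11.90 at 14 days and from 9.30 to 11.48 in naïve skin, where replicates 4 and 5 were lowest (10.12 and 9.30). The macrophage genes ran from 8.63 to 9.39 at 7 days, from 8.26 to 8.62 at 14 days and from 6.50 to 8.92 in naïve skin, with the same replicates lowest (6.91 and 6.50). Of 10 measured epidermis genes 1 was lower at each time, of 10 adipocyte genes 1 at 14 days, and of 7 Schwann cell genes 2 were lower at 7 days and 1 lower and 1 higher at 14 days. The part of the sarcomere, hair follicle, fibroblast, endothelial and macrophage genes in the enzymes' levels was not tested. The fits with a score cannot decide it, because the scores themselves differed between the groups. Median levels at 14 days and in naïve skin were 10.16 and 11.59 for the sarcomere genes and 11.70 and 6.79 for the hair follicle genes.

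**Figure D4:**
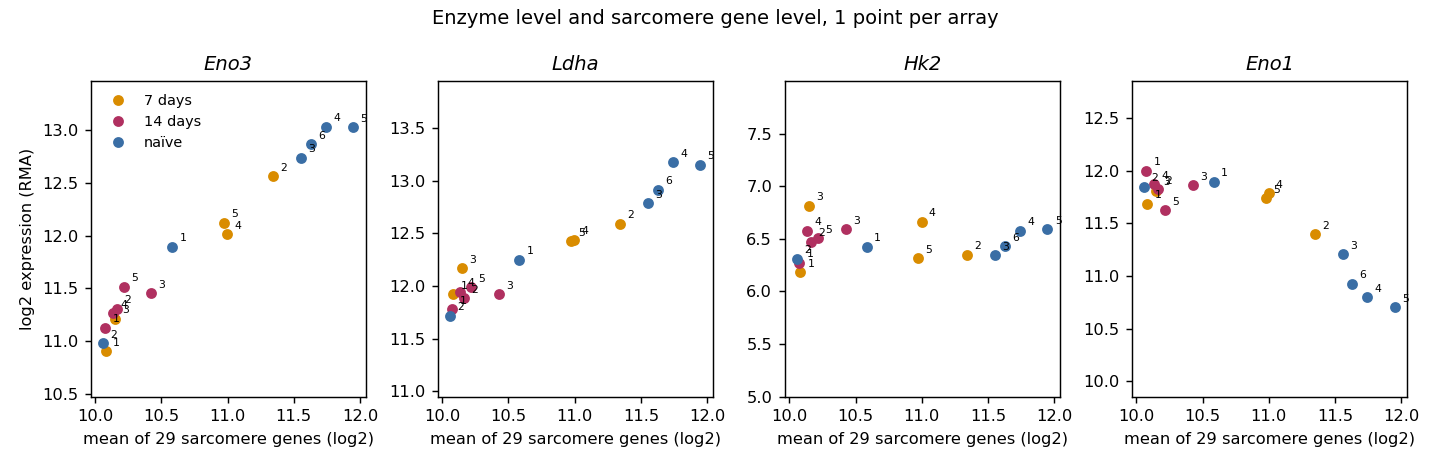
Level of Eno3, Ldha, Hk2 and Eno1 (vertical axes, log2, equal span) against the mean level of 29 sarcomere genes on the same array (horizontal axis, log2), 1 point per array with its replicate number, at 7 days, 14 days and in naïve skin. Naïve replicates 3 to 6 lie at the right, high in Eno3 and Ldha and low in Eno1, and Hk2 is level across the arrays.

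Of the signs of RNA quality, that of beta-actin differed among the naïve arrays and that of GAPDH differed little. The control probesets of beta-actin gave a 3′ minus middle difference from 0.20 to 0.29 at 7 days and from 0.045 to 0.28 at 14 days, against 0.18 and 0.23 for naïve replicates 1 and 2 and 0.52, 0.96, 1.20 and 0.85 for naïve replicates 3 to 6. A different contrast was taken on the GAPDH control probesets, 3′ minus 5′. It lay between 0.23 and 0.42 at 7 days, between 0.32 and 0.37 at 14 days and between 0.29 and 0.34 in naïve skin. The part of RNA quality in the result was not tested.

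Of the 10 enzymes, 6 were near the top of the scale, with a mean over all arrays in the highest 1% of genes, which held 143 genes with means of at least 11.51. They were Aldoa (mean 13.25, rank 18), Ldha (12.32, rank 69), Eno3 (11.88, rank 101), Tpi1 (11.70, rank 122), Pgam2 (11.66, rank 126) and Eno1 (11.56, rank 139). The brightest gene averaged 13.99, and the highest deposited signal was 14.39. Aldoa, the enzyme nearest to this ceiling, spanned 1.03 log2 units over the 16 arrays, while Pfkm (mean 10.40) spanned 2.55 and Pgam2 3.29. Hk2 lay at the 41.9 percentile of genes and spanned 0.63. Brightness depends on the probes as well as on the RNA, and whether bright probesets understate a change was not tested.

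**Figure D5:**
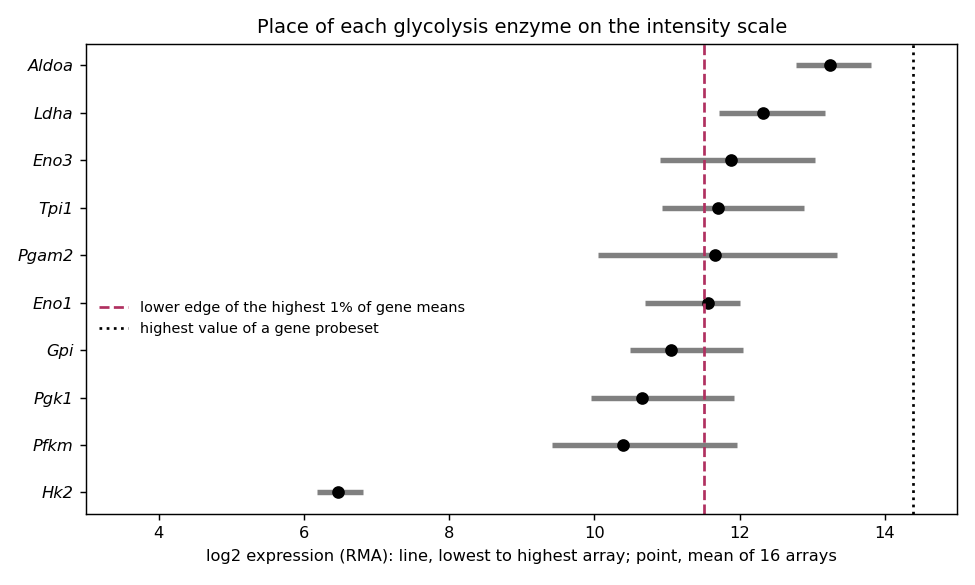
Place of each glycolysis enzyme on the log2 scale (horizontal axis), with a point for the mean of 16 arrays and a line from the lowest to the highest array. The dashed line marks the lower edge of the highest 1% of gene means (11.51) and the dotted line the highest signal (14.39), and 6 enzymes have their point right of the dashed line.

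Of the other enzymes of the pathway, 13 of 18 listed genes were measured. At 7 days 2 were higher and none lower, beside 7.85% and 2.66% of all genes, and at 14 days 1 was higher and 1 lower, beside 8.95% and 14.6%. Eno2, the enolase of neurons and endocrine cells, was at 6.13, 6.92, 6.48, 7.51 and 6.39 at 7 days and 5.98, 5.66, 5.66, 6.05 and 5.74 at 14 days, against 5.32 (lowest), 5.65 (median) and 6.13 (highest) in naïve skin. It was 2.03-fold higher at 7 days (log2 fold change 1.02, SE 0.208, adjusted p = 0.00839) and lower by 0.87 at 14 days than at 7 days (adjusted p = 0.0161).

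Adpgk, which phosphorylates glucose with ADP in place of ATP, was higher at both times, by 0.56 at 7 days (adjusted p = 0.0404) and 0.50 at 14 days (adjusted p = 0.0388). Ldhb, the lactate dehydrogenase subunit of oxidative tissues, fell by 0.55 at 14 days (SE 0.137, adjusted p = 0.0151). Bpgm, which makes 2,3-bisphosphoglycerate, had a log2 fold change of -0.69 at 14 days (adjusted p = 0.0541). Hkdc1 and Pklr, both dim, were higher at 14 days than at 7 days, by 0.24 (adjusted p = 0.0114) and 0.27 (adjusted p = 0.0202). Hk1, Pfkl, Pfkp, Aldoc, Gapdhs, Pgam1 and Ldhc passed at neither time, with log2 fold changes from -0.21 to 0.37.

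Gapdh was measured on control probesets only, which were outside the model. Its 3′ probeset gave 12.68, 13.28, 12.83, 13.16 and 13.29 at 7 days and 12.66, 12.58, 12.87, 12.71 and 12.78 at 14 days, against 12.59 to 13.68 in naïve skin. The differences at 14 days were -0.59, -0.61 and -0.63 for the 3′, middle and 5′ probesets (exact permutation p = 0.0238, 0.0281 and 0.0173, adjusted 0.169 for each over 18 tests), so none passed.

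Around the pathway, 23 of 24 listed regulators and transporters were measured. At 7 days 1 was higher and 2 lower, beside 7.85% and 2.66% of all genes, and at 14 days 3 were higher and 8 lower, beside 8.95% and 14.6%. The median log2 fold change of the 23 was -0.25 at 7 days and -0.52 at 14 days. Gpd1, the cytosolic glycerol-3-phosphate dehydrogenase of the shuttle that carries NADH to mitochondria, was at 8.35, 9.21, 8.51, 8.66 and 8.59 at 7 days and 8.17, 8.19, 8.45, 8.30 and 8.47 at 14 days, against 8.69 (lowest), 9.79 (median) and 10.29 (highest) in naïve skin. Its 14-day arrays all lay below its naïve arrays, with a log2 fold change of -1.32 (SE 0.250, adjusted p = 0.00421), and it was lower by 0.98 at 7 days (adjusted p = 0.0237).

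Gpd2, the mitochondrial enzyme of that shuttle, fell by 0.93 at 14 days (adjusted p = 0.0156), and Pdk1, which inhibits pyruvate dehydrogenase, by 0.55 (adjusted p = 0.00953). Fbp1, a fructose-bisphosphatase that runs the pathway backwards, was higher by 2.43 at 14 days (SE 0.751, adjusted p = 0.0324), with the same division among naïve arrays, at 8.95 and 9.37 for replicates 1 and 2 and 5.40 to 5.76 for replicates 3 to 6. Pfkfb2, which makes the phosphofructokinase activator fructose 2,6-bisphosphate, was higher by 0.60 at 14 days (adjusted p = 0.0163), as was Pdk3, another inhibitor of pyruvate dehydrogenase, by 0.60 (adjusted p = 0.0376). Slc2a3, the glucose transporter GLUT3, was higher at 7 days by 0.73 (SE 0.137, adjusted p = 0.00587) and fell by 0.57 at 14 days relative to 7 days (adjusted p = 0.0159). Pfkfb1, of the same enzyme family as Pfkfb2, was lower by 0.70 at 7 days (adjusted p = 0.0166). Between the times, Pfkfb2 was higher at 14 days by 0.70 (adjusted p = 0.0114) and Pfkfb4 by 0.52 (adjusted p = 0.0160), and the lactate and pyruvate transporter Slc16a1 fell by 0.29 (adjusted p = 0.0264). The same division among naïve arrays held for Adpgk, Ldhb, Gpd1, Gpd2, Pdk1, Pdk3, Pfkfb1, Pfkfb2, Pfkfb4 and Slc16a1. In each, naïve replicates 3 to 6 all lay on one side of naïve replicates 1 and 2. In Eno2, Slc2a3, Hkdc1 and Pklr they did not.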

How the data were processed

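Skin of 16 rats was measured on 16 arrays (7 days n = 5, 14 days n = 5, naïve n = 6). The authors made the deposited log2 values by robust multi-array averaging (RMA), and the submitters' processing notes name RMA, without a version, and R 3.0.1. This scaling gives the arrays a common distribution, so values are relative to it. From 31099 probesets, 57 control probesets, 9780 with no gene and 436 with several were left out, and the median over probesets gave 14217 genes, 4525 of them with more than 1 probeset. Symbols were updated through RefSeq (GRCr8) for 20758 probesets.

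The test was limma 3.58.1 (R 4.3.3), 1 model with a mean per group, Benjamini-Hochberg adjustment over all genes and a threshold of 0.05. P values set each difference against the spread between arrays within groups, with 1 array per rat. In naïve skin that spread includes the division among the naïve replicates. The few arrays per group limit the precision. The test was tried on simulated data with known changes. The members, the gene lists and the 3 pairs were chosen with earlier results of these data known. All members and other glycolysis enzymes were named, and of regulators up to 3 per direction and comparison with the largest statistic among those that passed. Replicate numbers do not pair rats. Alternatives changed probeset collapse, scaling, dim genes, moderation, weights, covariates, thresholds and arrays. Probesets taken singly and isoform pairs without naïve replicates 3 and 6 were added after seeing the data.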

Additional observations from a re-analysis of the deposited data

How the results depend on the processing

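Of the 10 enzymes, 8 had a negative mean log2 fold change at 14 days in every fit that left out 1 array, and the calls moved more than the directions. At 14 days, where 7 enzymes were lower and 1 (Eno1) higher, the numbers were 2 lower after a further quantile normalization, 0 higher when the third group was left out of the model, and 0 lower and 0 higher with a replicate block, with the sarcomere score, with the hair follicle score, with naïve replicates 4 and 5 left out, or at a threshold of 0.01. Leaving out 1 array at a time gave 1 to 8 lower and 0 to 1 higher. At 7 days, where none passed, 8 were lower and 1 higher with array weights or without naïve replicates 1 and 2, and single omissions gave 0 to 7 lower and 0 to 1 higher. Between 14 and 7 days, 2 (Ldha and Pgk1) were lower when naïve skin was left out of the model or without naïve replicates 1 and 2, and none in any single omission. Over all genes the calls moved as well, at 7 days from 31 to 2334 lower and 264 to 2706 higher (378 and 1116 as reported), at 14 days from 229 to 3411 lower and 88 to 3572 higher (2071 and 1272), and between the times from 720 to 2589 lower and 566 to 2265 higher (1430 and 1260). The cause was not tested.

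Same-numbered rats did not all deviate together (8 of 15 pairs over 0.1, r from -0.552 to 0.583), so the replicate block joins samples that share only a number, and the whole array then had 899 genes lower and 367 higher at 14 days. In the isoform pairs the replicate block gave -0.97, -1.55 and -0.58 for the enolases at 7 days, 14 days and between them, -1.10, -1.36 and -0.26 for the mutases, and -1.09, -1.71 and -0.62 for the phosphofructokinases. Without naïve replicates 1 and 2, all pairs passed against naïve skin (adjusted p = 0.0238, exact permutation test), with changes at 7 and 14 days of -1.93 and -2.51 for the enolases, -2.12 and -2.38 for the mutases and -1.79 and -2.42 for the phosphofructokinases. Those arrays were the lowest naïve ones in each pair, so leaving them out could only enlarge the changes, and these p values add no support. Single omissions gave at 14 days -2.11 to -1.47, -1.99 to -1.16 and -2.11 to -1.60, at 7 days -1.53 to -0.89, -1.73 to -0.89 and -1.49 to -0.95, and between the times -0.80 to -0.31, -0.47 to 0.068 and -0.86 to -0.40, so that the mutases changed sign without 7-day replicate 2. Leaving out naïve replicates 3 and 6, chosen after seeing the data, left every pair's direction.

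Some single log2 fold changes turned sign, of which only those of Eno3 and Pfkm at 14 days had passed. With the hair follicle score they were 0.004 for Eno3, 0.01 for Pgam2, 0.017 for Aldoa, 0.031 for Tpi1 and 0.078 for Ldha at 7 days, 0.204 for Pgam2 at 14 days, and 0.195 for Pgam2 and -0.061 for Eno1 between the times. With the sarcomere score they were 0.083 for Eno3 and 0.359 for Pgam2 at 14 days, and between the times 0.137 for Eno3, 0.444 for Pgam2, 0.097 for Gpi, 0.028 for Tpi1, 0.005 for Pgk1 and -0.103 for Eno1. Hk2, near 0 throughout, was -0.055 with array medians subtracted, -0.04 after quantile normalization and -0.02 without naïve replicates 1 and 2 at 7 days, -0.009 and -0.001 with the last of these at 14 days, and in single omissions -0.068 to 0.089 at 7 days and -0.051 to 0.106 between the times. The dim probeset of Pfkm gave 0.118 at 14 days and 0.313 between the times (adjusted p = 0.0483).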
